A study of Mus musculus with 9 samples.

Results

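The copying of DNA needs a set of proteins that load and open the replicative helicase, hold polymerases on the strand, supply nucleotides and join the new fragments. The 41 genes described here encode these proteins, and were found by symbol among the 31053 genes of 9 single-cell libraries of brain cells sorted for CD11b, a surface protein of myeloid cells. All 41 symbols were present once in the files. The libraries were made with the 10x Genomics 3′ v3 kit from female C57BL/6 mice, 5 months old, whose brains were taken without the cerebellum and depleted of myelin. Ctrl mice received no drug, with 1 mouse in each of the 3 libraries (Ctrl-1 to Ctrl-3). D0 mice were fed PLX5622, an inhibitor of the receptor CSF1R on which microglia depend, at 1200 mg/kg of diet for 14 days, with 2 pooled mice in each of the 3 libraries (D0-1 to D0-3). D2 mice had the same diet and then 2 days of control diet, again with 2 pooled mice in each of the 3 libraries (D2-1 to D2-3). No mouse carried a transgene or reporter that the sources name, so cells were identified from their transcripts alone. D0 and D2 libraries hold the sorted cells that were present under the drug or after its withdrawal, and their origin was not traced. The study left D2-3 out, so the tests used the other 8 libraries, and the values of D2-3 are printed beside them.

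Replication starts at origins, where the Cdc6 and Cdt1 proteins help to load the ring of Mcm2 to Mcm7, and Cdc45, the GINS complex and Mcm10 turn that ring into a moving helicase. Many of these genes are transcribed as cells leave G1, under transcription factors of the E2F family, of which E2f1 is a member, and their transcripts mark cells about to enter or already in S phase. Adult microglia divide rarely in an undisturbed brain and refill it by division after CSF1R inhibition. The genes fall into groups by role, which order the results: helicase loading, helicase activation, the sliding clamp Pcna and its loader, polymerases and primase, the single-strand binding complex, nucleotide supply, flap and nick processing, and a group of chromatin and transcription factors.

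Promoters are shown because the genes were followed as a group, and E2F sites are a well known element of many of them. RefSeq sequences on GRCm38.p6 were given for 34 of the 41 genes, as windows from 250 bases before the start of transcription to 30 bases after it, and those of Gins1, Gins2, Gins4, Mcm4, Pole, Prim2 and Rfc2 were not used here. A word of the E2F type (TTTGGCGC, TTTCGCGC, TTTCCCGC or TTTGCCGC, on either strand) was found for 11 of the 34 genes (32.4%), and for 2.45% of all 27025 genes with such a window. The 11 genes were Mcm3, Mcm5, Mcm6, Mcm7, Cdc6, Gins3, Rfc3, Pola1, Pold3, Hells and Uhrf1. The word CCAAT, read on both strands, was found for 20 of the 34 genes (58.8%, against 39.7% of all genes), and the word TTTGAA for 5 (14.7%, against 19.5%). The windows below are read 5′ to 3′ on the strand of the gene, with the E2F words in capitals, which run together where 2 words overlap.
Mcm5 (chr8:75109259-75109538, plus strand): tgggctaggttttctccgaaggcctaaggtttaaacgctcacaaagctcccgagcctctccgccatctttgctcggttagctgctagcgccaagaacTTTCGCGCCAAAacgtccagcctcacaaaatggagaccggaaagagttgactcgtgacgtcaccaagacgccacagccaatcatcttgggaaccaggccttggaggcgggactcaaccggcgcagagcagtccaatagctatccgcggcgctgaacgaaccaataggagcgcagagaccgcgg
Mcm6 (chr1:128359676-128359955, minus strand): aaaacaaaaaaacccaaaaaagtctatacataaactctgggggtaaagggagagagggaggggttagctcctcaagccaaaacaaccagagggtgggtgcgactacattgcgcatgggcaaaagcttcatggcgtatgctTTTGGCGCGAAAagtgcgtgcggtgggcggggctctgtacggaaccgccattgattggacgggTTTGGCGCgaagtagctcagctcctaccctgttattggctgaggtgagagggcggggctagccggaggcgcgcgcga
Hells (chr19:38930740-38931019, plus strand): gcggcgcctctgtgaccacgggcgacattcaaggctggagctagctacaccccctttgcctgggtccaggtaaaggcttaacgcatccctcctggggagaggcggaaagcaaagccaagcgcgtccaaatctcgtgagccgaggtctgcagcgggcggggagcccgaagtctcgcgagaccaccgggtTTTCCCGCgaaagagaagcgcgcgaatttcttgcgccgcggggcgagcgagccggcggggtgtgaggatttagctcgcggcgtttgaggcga
Uhrf1, the second of its start sites (chr17:56304063-56304342, plus strand): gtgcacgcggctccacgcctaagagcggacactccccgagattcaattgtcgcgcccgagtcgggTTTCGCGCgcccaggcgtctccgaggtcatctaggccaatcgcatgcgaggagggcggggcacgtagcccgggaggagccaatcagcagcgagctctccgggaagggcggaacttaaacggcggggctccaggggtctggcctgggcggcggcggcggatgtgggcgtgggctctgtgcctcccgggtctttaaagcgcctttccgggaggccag
Rrm2 (chr12:24708004-24708283, plus strand): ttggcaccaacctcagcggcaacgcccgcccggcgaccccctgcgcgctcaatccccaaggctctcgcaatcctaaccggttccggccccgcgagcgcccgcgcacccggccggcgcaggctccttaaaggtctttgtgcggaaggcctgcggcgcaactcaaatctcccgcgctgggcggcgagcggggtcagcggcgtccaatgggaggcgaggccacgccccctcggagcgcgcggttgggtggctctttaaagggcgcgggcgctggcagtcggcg
Rfc1 (chr5:65335610-65335889, minus strand): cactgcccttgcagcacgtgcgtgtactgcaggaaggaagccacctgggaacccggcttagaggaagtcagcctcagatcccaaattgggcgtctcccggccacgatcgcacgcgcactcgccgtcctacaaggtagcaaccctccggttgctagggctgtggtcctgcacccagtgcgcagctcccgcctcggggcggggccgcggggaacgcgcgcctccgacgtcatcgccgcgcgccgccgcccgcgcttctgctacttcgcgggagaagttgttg
Mcm5, Mcm6, Hells and Uhrf1 were chosen as genes with an E2F word and a large change. Tk1 and E2f1, with log2 fold changes of 4.32 and 3.799 in D0 against Ctrl, had none of the E2F words in their windows, which are not shown. The first window of Uhrf1 had none either. The window of E2f1 (chr2:154569397-154569676, minus strand) lies inside the annotated gene (chr2:154559407-154569892). Sequence before the annotated 5′ end of E2f1 was therefore not searched, and nothing is said here of E2F words in it. Whether the word goes with the size of the change was not tested. Rrm2, with the largest change of all, and Rfc1, which was not called in any comparison here, had none of the E2F words in the window, and each had 1 CCAAT. Of the 11 genes with an E2F word, Mcm3, Gins3, Rfc3 and Pold3 were not called in D0 against Ctrl in the results that follow.

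The 9 libraries held 2875 to 5721 barcodes and 20257894 to 61230741 UMIs (unique molecular identifiers, 1 for each captured transcript), and at most 8 barcodes were shared by any pair. Clusters that expressed microglia markers were called microglia-like and held 1685 to 3851 cells in the 8 tested libraries, with 12443537 to 37306981 UMIs. The 12 markers of microglia summed to 30465 to 35974 CPM (a gene's UMIs as parts per 1e6 of all UMIs of the same cells) in Ctrl, 21982 to 23771 CPM in D0 and 18577 to 19326 CPM in D2-1 and D2-2. D2-3 stood apart, with 781 microglia-like cells and 9312 CPM of these markers, fewer than in any other library. Neutrophil markers, of which S100a8 and S100a9 define the type, summed to 8.61 to 39.2 CPM in Ctrl, 65.9 to 221 CPM in D0 and 54.2 and 205 CPM in D2 within the same cells. In the same order, dendritic cell markers summed to 39.4 to 51.1 CPM in Ctrl, 81.5 to 103 CPM in D0 and 75.0 and 95.3 CPM in D2, and monocyte markers to 7.81 to 9.39 CPM, 11.99 to 18.4 CPM, and 14.9 and 25.6 CPM. Their part in the results was not tested.

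In microglia-like cells, replication genes were higher under the inhibitor, and in part also after its withdrawal. Summed over the 41 genes, the level was 450.0, 417 and 449.5 CPM in the Ctrl libraries, 649, 590.0 and 1302 CPM in D0, 586 and 541 CPM in D2-1 and D2-2, and 2956 CPM in D2-3. Every treated library was above every Ctrl library, and within D0 the sum of D0-3 was far above those of D0-1 and D0-2. UMIs were summed per library over these cells, the sums were tested by edgeR's quasi-likelihood method, and p was adjusted over the 12433 genes tested, with a call at an adjusted p under 0.05. In D0 against Ctrl, 27 of the 41 genes rose and 0 fell, where 12.5% of all genes tested rose, 7.67% fell and 20.1% were called in either direction. The median log2 fold change of the 41 genes was 1.46, and that of all genes tested was -0.055. The levels of 25 genes did not overlap between the groups, with D0 higher, as was the case for 12.5% of all genes. Of the 27 calls, 11 had an adjusted p between 0.01 and 0.05, and a further 7 genes that were not called had one between 0.05 and 0.2. The number of calls fell to 17 without Ctrl-2 and to 3 with D2-3 included. The share of all genes called in those fits, and in the fit with a version term that follows, is not given here. These counts are therefore not set against a background. The headers of 6 libraries name Cell Ranger 3.0.2 and those of Ctrl-2, Ctrl-3 and D2-3 name 3.1.0, and with the version as a term 15 genes were called in D0 and 6 in D2. All tested D0 and D2 libraries have the older version, so version and treatment cannot be fully told apart. Ctrl-1, the 1 Ctrl library of the older version, had the highest sum of the Ctrl libraries, 450.0 CPM. A sum over cells cannot tell a larger share of cells with a transcript from more transcripts per cell, so shares of cells are given further on. Fold changes use edgeR's TMM scaling, which raised them by 0.21 on the log2 scale above the ratio of CPM values in D0 against Ctrl and by 0.12 in D2 against Ctrl.

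**Figure D1:**
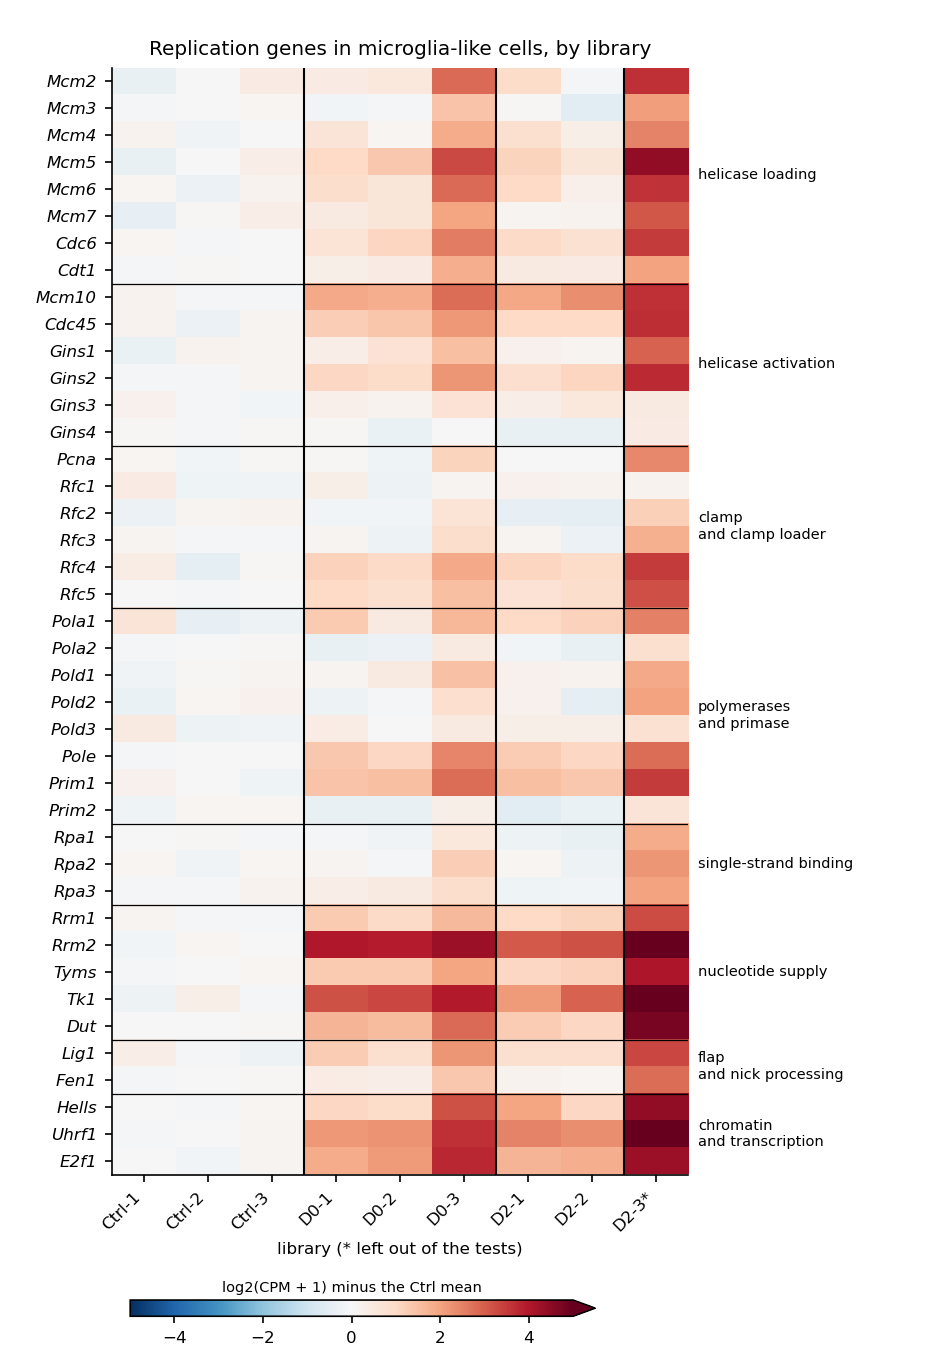
Levels of the 41 replication genes in microglia-like cells, with libraries in columns and genes in rows, grouped by role. Colours give log2(CPM + 1) minus the mean of the Ctrl libraries and stop at 5 in either direction. D0-3 and the starred D2-3, which was left out of the tests, are darker than the other treated libraries for most genes, and Rrm2 and Tk1 are dark in all treated libraries.

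D0-3 carried much of the size of these changes. It was the highest of the 3 D0 libraries for 39 of the 41 genes (Gins4 and Rfc1 were the exceptions), and it was highest for 36.3% of the 11170 genes with a mean of 1 CPM or more in D0. The ratio of D0-3 to the mean of D0-1 and D0-2 had a median of 2.13 over the 41 genes and of 0.999 over those 11170 genes. The ratio varied within roles: it ran from 2.85 for Mcm7 to 5.81 for Mcm2 among the 8 genes of helicase loading and from 1.26 for Rrm2 to 2.32 for Dut among the 5 of nucleotide supply, and differences between roles were not tested. Without D0-3, 22 genes rose in D0 and their call was the same in both fits, while Mcm4, Mcm7, Gins1, Pola1 and Pold1 were no longer called, and the median log2 fold change fell from 1.46 to 0.90. Mki67 and Top2a, which are no members and mark dividing cells, did not show this gap, with 126, 109.7 and 109 CPM of Mki67 and 129, 105 and 111 CPM of Top2a in D0-1, D0-2 and D0-3, against at most 3.41 CPM of either in Ctrl.

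Nucleotide supply was the only group in which all genes rose in both comparisons, 5 of 5 in D0 (median log2 fold change 2.55) and 5 of 5 in D2 (median 1.43). In D0 alone, all genes also rose in flap and nick processing and in the chromatin and transcription group. Rrm2, the regulated subunit of ribonucleotide reductase, which makes deoxynucleotides, had the largest change of all 41 genes. It stood at 0.293, 0.522 and 0.438 CPM in the Ctrl libraries, 21.7, 20.2 and 26.3 CPM in the D0 libraries, 10.98 and 11.9 CPM in D2-1 and D2-2, and 192 CPM in D2-3. The treated libraries were all above Ctrl, where Rrm2 was held by 8 to 11 UMIs per library, and both D2 libraries were below all D0 libraries. The log2 fold change was 5.99 ± 0.24 in D0 (standard error; adjusted p = 6.84e-07) and 4.90 ± 0.25 in D2 (adjusted p = 1.64e-06). Tk1, thymidine kinase of the salvage pathway, had 1.39, 2.45 and 1.71 CPM in Ctrl, 24.7, 27.3 and 42.8 CPM in D0, 11.5 and 20.6 CPM in D2 and 114 CPM in D2-3. The groups were again separate, and the log2 fold change was 4.32 ± 0.35 in D0 (adjusted p = 3.47e-05) and 3.24 ± 0.37 in D2 (adjusted p = 3.35e-04).

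Dut, which removes dUTP so that uracil is not built into DNA, was measured at 5.02, 4.96 and 5.33 CPM in Ctrl, 18.9, 17.3 and 42.0 CPM in D0, 13.8 and 11.7 CPM in D2 and 163 CPM in D2-3. Its Ctrl values lay close together and under all treated values, with a log2 fold change of 2.55 ± 0.32 in D0 (adjusted p = 5.75e-04) and 1.43 ± 0.35 in D2 (adjusted p = 0.0200). For Tyms, thymidylate synthase, the levels were 11.9, 12.2 and 13.3 CPM in Ctrl, 32.2, 32.3 and 51.4 CPM in D0, 26.5 and 28.9 CPM in D2 and 223 CPM in D2-3. Rrm1, the large subunit of ribonucleotide reductase, reached 13.2, 11.2 and 11.4 CPM in Ctrl, 30.9, 23.7 and 38.4 CPM in D0, 24.4 and 27.2 CPM in D2 and 122 CPM in D2-3. Both genes were separate between Ctrl and the treated groups, with log2 fold changes of 1.83 ± 0.20 (Tyms) and 1.58 ± 0.17 (Rrm1) in D0, and of 1.26 ± 0.21 and 1.23 ± 0.19 in D2. Their adjusted p was 2.16e-04 and 2.29e-04 in D0 and 0.00333 and 0.00186 in D2.

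All 3 genes of the chromatin and transcription group rose in D0, with a median log2 fold change of 3.799, and Uhrf1 and E2f1 rose in D2. They were low in Ctrl and are named here after their values were seen. Uhrf1, which brings the maintenance methyltransferase to newly copied DNA, was at 0.623, 0.679 and 0.876 CPM in Ctrl, 6.67, 7.08 and 20.4 CPM in D0, 8.72 and 7.63 CPM in D2 and 68.7 CPM in D2-3. E2f1, a transcription factor of S-phase entry, was at 1.21, 1.04 and 1.47 CPM in Ctrl, 7.14, 8.77 and 29.6 CPM in D0, 6.32 and 6.91 CPM in D2 and 42.1 CPM in D2-3. No treated library reached down to the Ctrl levels of either gene, and D0-3 was the highest of the tested libraries for both. The log2 fold changes in D0 were 4.16 ± 0.48 for Uhrf1 (adjusted p = 3.45e-04), 3.799 ± 0.54 for E2f1 (adjusted p = 0.00123) and 2.77 ± 0.66 for Hells, a chromatin remodeller (adjusted p = 0.0176). In D2 they were 3.60 ± 0.51 and 2.51 ± 0.59, with adjusted p = 0.00134 and 0.0165, while Hells, at 2.11 ± 0.71, was not called (adjusted p = 0.0693).

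Of the 8 genes of helicase loading, 6 rose in D0 (median log2 fold change 1.75) and 0 were called in D2 (edgeR, median 0.71), where Cdc6 alone had an unadjusted p under 0.05. Mcm5, Mcm6 and Mcm7, subunits of the helicase ring, had their highest tested level in D0-3. Mcm5 had 3.67, 5.07 and 6.61 CPM in Ctrl, 10.8, 14.2 and 58.4 CPM in D0, 12.03 and 8.04 CPM in D2 and 128 CPM in D2-3. Mcm6 had 8.69, 6.53 and 9.36 CPM in Ctrl, 15.8, 12.7 and 63.2 CPM in D0, 17.3 and 9.80 CPM in D2 and 112 CPM in D2-3. Mcm7 had 7.95, 11.3 and 13.9 CPM in Ctrl, 15.1, 17.02 and 45.8 CPM in D0, 12.1 and 12.5 CPM in D2 and 99.5 CPM in D2-3. D0-1 and D0-2 were above Ctrl for each of these genes, by far less than D0-3. The log2 fold changes in D0 were 2.64 ± 0.60 for Mcm5 (adjusted p = 0.0142), 2.10 ± 0.55 for Mcm6 (adjusted p = 0.0270) and 1.43 ± 0.41 for Mcm7 (adjusted p = 0.0354). Without D0-3 they were 1.51 ± 0.29 with adjusted p = 0.0108, 1.00 ± 0.24 with adjusted p = 0.0267 and 0.75 ± 0.24 with adjusted p = 0.0750.

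Mcm3, the helicase subunit with the highest UMI counts, was not called, with 38.9, 40.6 and 43.7 CPM in Ctrl, 37.3, 38.5 and 112 CPM in D0, 42.9 and 28.4 CPM in D2 and 179.9 CPM in D2-3. D0-1 and D0-2 lay under all Ctrl libraries, so that the log2 fold change of 0.81 ± 0.38 (adjusted p = 0.165) came from D0-3, and without it the value was 0.10 ± 0.17 with adjusted p = 0.754. Mcm2 was not called either, at 2.07 ± 0.67 (adjusted p = 0.0578), and had a ratio of D0-3 to the other D0 libraries above that of any other gene. Mcm4 and Cdt1 rose by 1.34 ± 0.40 and 1.34 ± 0.38. Cdc6 rose by 4.27 ± 0.80 (adjusted p = 0.00562) from 2 to 6 UMIs per Ctrl library, too few for its size to be read closely.

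Among the 6 genes of helicase activation, Mcm10, Cdc45, Gins1 and Gins2 rose in D0, and Mcm10 and Cdc45 rose in D2. Mcm10, which helps to fire the loaded helicase, was almost absent from Ctrl, with 7, 1 and 2 UMIs in Ctrl-1, Ctrl-2 and Ctrl-3, and had 61, 110 and 132 UMIs in D0 and 67 and 58 UMIs in D2-1 and D2-2. In CPM these were 0.257, 0.0522 and 0.0796 CPM in Ctrl, 3.15, 2.95 and 6.70 CPM in D0, 3.36 and 4.66 CPM in D2 and 13.03 CPM in D2-3. The log2 fold change was 5.10 ± 0.54 in D0 and 4.92 ± 0.57 in D2, and its size depends on the few UMIs in Ctrl. Cdc45 rose by 2.54 ± 0.35 in D0 and by 1.63 ± 0.39 in D2. The 4 subunits of GINS did not move alike: Gins2 and Gins1 rose in D0 by 1.89 ± 0.35 and 1.34 ± 0.35, whereas Gins3 (0.72 ± 0.23, adjusted p = 0.0579) and Gins4 (0.12 ± 0.12, adjusted p = 0.516) were not called. Gins4 was at 25.7, 22.7 and 25.7 CPM in Ctrl, 25.6, 19.6 and 24.9 CPM in D0, 18.6 and 18.8 CPM in D2 and 33.1 CPM in D2-3, values that overlapped between Ctrl and D0 and were lower in both tested D2 libraries.

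In the clamp and its loader, 2 of 6 genes rose in D0 and 2 in D2. The median log2 fold change was 0.59 in D0, the lowest of the groups, and 0.21 in D2, where that of the single-strand binding complex was lower (-0.07). Pcna, the ring that holds polymerases on DNA and a usual marker of S phase, had 22.6, 19.0 and 21.8 CPM in Ctrl, 21.9, 18.1 and 46.2 CPM in D0, 21.4 and 20.7 CPM in D2 and 114 CPM in D2-3. All tested libraries but D0-3 lay between 18.1 and 22.6 CPM, and the log2 fold change was 0.65 ± 0.29 in D0 (adjusted p = 0.154) and 0.11 ± 0.33 in D2 (adjusted p = 0.856). Among the 5 loader subunits, Rfc4 and Rfc5 rose in D0 (1.69 ± 0.28 and 1.46 ± 0.20) and in D2 (1.17 ± 0.31 and 1.01 ± 0.22). Rfc1, the large subunit, was at 64.7, 41.3 and 42.1 CPM in Ctrl, 58.8, 40.3 and 53.3 CPM in D0, 56.9 and 55.5 CPM in D2 and 55.3 CPM in D2-3. Its values overlapped in every pair of groups, with a log2 fold change of 0.25 ± 0.17 in D0. Rfc2 had 41.3, 54.8 and 56.6 CPM in Ctrl, 45.8, 45.5 and 81.5 CPM in D0, 38.0 and 35.7 CPM in D2 and 117 CPM in D2-3. For Rfc3 the levels were 18.6, 16.3 and 16.3 CPM in Ctrl, 18.7, 14.2 and 32.1 CPM in D0, 18.6 and 13.7 CPM in D2 and 61.0 CPM in D2-3. D0 overlapped Ctrl for both, with log2 fold changes of 0.38 ± 0.24 and 0.54 ± 0.26, and D2 was below Ctrl for Rfc2.

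In the group of polymerases and primase, 4 of 8 genes rose in D0 and 2 of 8 in D2. Pole, the catalytic subunit of the leading strand polymerase, rose by 3.14 ± 0.48 in D0 and by 2.32 ± 0.54 in D2 from 10 to 14 UMIs per Ctrl library. Prim1, the catalytic primase subunit, rose by 2.57 ± 0.38 and by 1.80 ± 0.41. Pola1 and Pold1 rose in D0 by 1.54 ± 0.38 and 1.13 ± 0.35, and neither call held without D0-3. The partners Pola2, Prim2 and Pold2 were not called, at 0.17 ± 0.25, 0.07 ± 0.22 and 0.46 ± 0.33, and the first 2 turned slightly negative when the TMM factors were left out, as did Gins4. Pold3, an accessory subunit, was at 27.5, 16.4 and 17.4 CPM in Ctrl, 26.1, 19.5 and 27.6 CPM in D0, 24.7 and 24.3 CPM in D2 and 34.7 CPM in D2-3. Its Ctrl-1 value was close to that of D0-3, and the log2 fold change of 0.46 ± 0.19 was not called (adjusted p = 0.114).

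Lig1 and Fen1, which seal nicks and cut flaps between fragments of the lagging strand, both rose in D0 and were not called in D2. Lig1 had 13.2, 9.76 and 8.44 CPM in Ctrl, 25.9, 18.7 and 51.5 CPM in D0, 18.6 and 19.1 CPM in D2 and 115 CPM in D2-3. Fen1 had 14.1, 15.2 and 15.5 CPM in Ctrl, 19.4, 19.0 and 39.2 CPM in D0, 17.05 and 16.2 CPM in D2 and 111 CPM in D2-3. The treated libraries were above Ctrl for both, and the log2 fold changes in D0 were 1.82 ± 0.33 (adjusted p = 0.00499) and 1.00 ± 0.26 (adjusted p = 0.0265). Of the single-strand binding complex, Rpa3, the smallest subunit, rose by 0.82 ± 0.18 in D0 (adjusted p = 0.0134), while Rpa1 and Rpa2 were not called (0.34 ± 0.20 and 0.79 ± 0.32). Rpa3 was measured at 13.9, 13.9 and 17.1 CPM in Ctrl, 19.2, 20.8 and 28.6 CPM in D0, 12.8 and 13.7 CPM in D2 and 63.4 CPM in D2-3. In D2 it was below all Ctrl libraries in CPM, with a log2 fold change of -0.07 ± 0.21 that was not called.

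**Figure D2:**
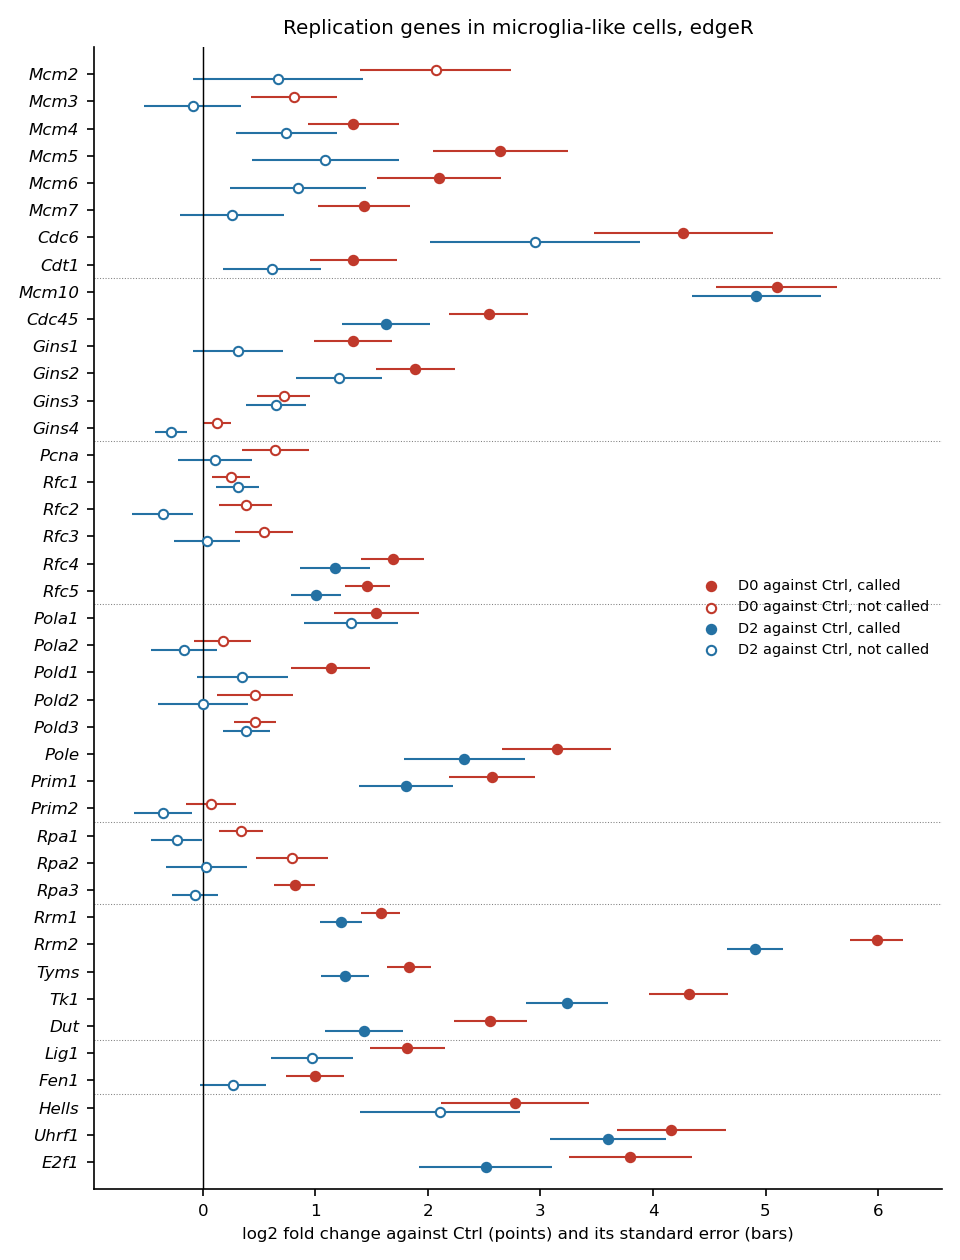
Log2 fold changes of the 41 genes in microglia-like cells in D0 and in D2 against Ctrl, with standard errors as bars and filled points for an adjusted p under 0.05 (edgeR); the genes are ordered by role. Filled points number 27 in D0 and 13 in D2, and the points of Rrm2, Mcm10 and Tk1 lie farthest to the right in D0.

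In D2 against Ctrl, 13 of the 41 genes rose and 0 fell, where 10.6% of all genes tested rose and 7.48% fell. These were the 5 genes of nucleotide supply, Mcm10, Cdc45, Rfc4, Rfc5, Pole, Prim1, Uhrf1 and E2f1. The median log2 fold change over the 41 genes was 0.74, against -0.026 over all genes. The levels of 25 genes were separate with D2 higher (17.8% of all genes) and those of 6 genes separate with D2 lower (35.3% of all genes); the 6 were Prim2, Rfc2, Rpa3, Gins4, Rpa1 and Pola2, with log2 fold changes between -0.36 (Rfc2) and -0.07 (Rpa3). Fewer of the 41 genes were called without D2-1 or without D2-2, in fits that leave 1 library in D2. The share of all genes called is not given here for fits that leave out or add a library. Without D0-3, 21 genes were called in D2, all 13 among them, and with D2-3 included 17 were called. D0 and D2 were compared with the same Ctrl libraries, so their fold changes are not independent of each other.

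Set against D0 directly, 0 genes were called in D2 by edgeR among the 41 and among all 12433 genes. At an unadjusted p under 0.05, 15 of the 41 genes passed, all lower in D2, as did 3.43% of all genes in that direction and 6.48% in either. The median log2 fold change was -0.72, against -0.0072 over all genes. The levels of 13 genes did not overlap, with D2 lower, as was the case for 7% of all genes. Rrm2 had the smallest unadjusted p, with a log2 fold change of -1.08 ± 0.20 in D2 against D0 (adjusted p = 0.725), and it was the 1 gene of the 41 that was called lower by DESeq2 and by edgeR with no filter on low counts. Mki67 and Top2a had higher levels in D2 (198 and 171 CPM, and 157 and 160.5 CPM) than in all D0 libraries.

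Other genes of the pathway, 52 genes of origin recognition, licensing control, checkpoint and chromatin assembly, moved with the 41. Of the 51 tested, 31 rose and 1 fell in D0, with a median log2 fold change of 1.15, and 22 rose and 0 fell in D2, with a median of 0.82. The largest changes in D0 were those of E2f7 (5.94 ± 0.56), E2f8 (5.27 ± 0.36), Ccne1 (4.81 ± 0.44), Dtl (4.55 ± 0.63) and Ccne2 (4.51 ± 0.50). E2f7 and E2f8 are repressors within the E2F family, Ccne1 and Ccne2 are the cyclins of S-phase entry, and Dtl targets Cdt1 for destruction. The gene that fell was Orc4, a subunit of the origin recognition complex (-0.40 ± 0.12, adjusted p = 0.0453).

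Cells were then counted. To compare cells of different depth, those with at least 2000 UMIs were thinned to 2000 UMIs, and a cell was called an S-phase cell where it held UMIs of 3 or more of 20 replication genes, a rule on transcripts and not a measure of DNA content. The share of S-phase cells among microglia-like cells was 0.419%, 0.973% and 1.18% in Ctrl-1, Ctrl-2 and Ctrl-3, 3.31%, 4.33% and 17.1% in D0-1, D0-2 and D0-3, and 3.32% and 3.74% in D2-1 and D2-2. In D2-3 it was 58.7%. Treated libraries did not overlap with Ctrl. The mean was 8.24% ± 7.67 (SD, n = 3) in D0 and 0.858% ± 0.394 (SD, n = 3) in Ctrl, a difference of 7.38 percentage points with p = 0.1 in an exact two-sided permutation test over libraries, the smallest p that 3 against 3 allows. D2 had a mean of 3.53% ± 0.298 (SD, n = 2), a difference of 2.67 percentage points from Ctrl with an exact permutation p = 0.2, the smallest that 2 against 3 allows. The exact binomial 95% interval, which covers counting error only, was 3.70% to 5.03% in D0-2 and 15.4% to 18.9% in D0-3, and without D0-3 the mean of D0 was 3.82%. Of the 787 S-phase cells in the 8 libraries, 356 (45.2%) held exactly 3 of the genes, and 828 other cells held 2, so that the cut runs through a range and not between types.

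The background of this rule was measured at matched depth. Endothelial-like cells of the sort, which were also thinned, passed it in 1 of 119 cells (0.84%) in Ctrl, 2 of 328 (0.61%) in D0 and 1 of 227 (0.441%) in D2. The exact binomial 95% interval in Ctrl was wide, 0.0213% to 4.59%, and the shares of Ctrl microglia-like cells lay within it. In the Ctrl S-phase cells without mitotic genes, the 21 replication genes outside the rule summed to 843, 497 and 696 CPM, against 296, 261 and 275 CPM in Ctrl cells of neither rule. Without thinning, deeper cells passed more often, and the shares were 8.73% to 10.3% in Ctrl, 8.56%, 16.9% and 46.2% in D0 and 12.9% and 10.6% in D2-1 and D2-2, with overlap between D0 and Ctrl. The microglia-like cells kept for thinning had median depths of 5509 to 10593 UMIs per library.

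S-phase cells were divided by transcripts of mitosis, with a cell called mitosis-positive where it held UMIs of 2 or more of 20 mitotic genes, none of them among the 41. Cells described as without mitotic genes held UMIs of fewer than 2 of these genes after thinning, and were not always free of them. S-phase cells that were also mitosis-positive made up 0.0598%, 0.0927% and 0.0933% of microglia-like cells in Ctrl, 2.57%, 3.48% and 4.79% in D0 and 1.77% and 3.07% in D2-1 and D2-2, with D0 and D2 each above all Ctrl libraries (exact permutation p = 0.1 and 0.2). S-phase cells without mitotic genes made up 0.359%, 0.880% and 1.09% in Ctrl, 0.744%, 0.850% and 12.3% in D0 and 1.55% and 0.668% in D2-1 and D2-2. These shares overlapped between the groups, and D0-3 alone was far above the rest (exact permutation p = 0.6 for D0 and for D2 against Ctrl). Of all S-phase cells, those without mitotic genes were 22.4% in D0-1, 19.6% in D0-2 and 71.9% in D0-3, and 46.8% in D2-1 and 17.9% in D2-2. The difference between D2 and D0 was -5.68 percentage points, within the spread of the libraries (exact permutation p = 0.8). D2-3 had 18.7% S-phase cells without and 40.0% with mitotic genes. Within the S-phase cells of D0-3 that were not mitosis-positive, microglia markers summed to 23135 CPM, against 24737 CPM in the cells of that library that passed neither rule. At full depth, Mki67 was at 107, 108 and 45.9 CPM in S-phase cells without mitotic genes in D0-1, D0-2 and D0-3. It was at 4.28, 7.04 and 7.64 CPM in cells of neither rule and at 1169, 781 and 703 CPM in cells of both.

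**Figure D3:**
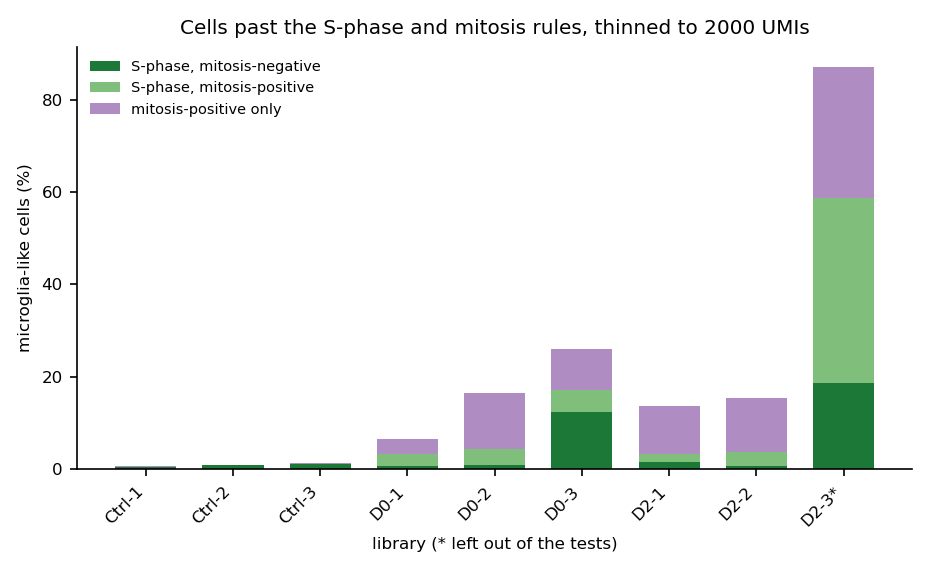
Percent of microglia-like cells in each library that passed the S-phase rule without mitotic genes, both rules, or the mitosis rule alone, at 2000 UMIs per cell, as stacked bars with 1 bar per library and no error bars. S-phase cells without mitotic genes reach 12.3% in D0-3 and 18.7% in D2-3 and stay at or under 1.55% in the other libraries.

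To see how far the changes came with mitotic cells, the test was repeated on microglia-like cells with at least 2000 UMIs that were not mitosis-positive. These cells still held mitotic transcripts, and more of them in D0. The genes of the mitosis rule summed to 40.3, 105 and 88.2 CPM in the D0 libraries and to 15.7, 14.6 and 12.99 CPM in Ctrl. Mki67 was at 5.52, 8.34 and 14.05 CPM in D0 and at 0.374, 0.262 and 0.321 CPM in Ctrl. How far the calls in these cells came with such transcripts was not tested. In D0 against Ctrl, 7 of the 41 genes rose and 0 fell, where 7.15% of all genes tested rose, 2.98% fell and 10.1% were called in either direction. They were Rrm2 (6.22 ± 1.09), Cdc6 (4.54 ± 1.17), Mcm10 (4.30 ± 1.11), E2f1 (3.90 ± 0.62), Uhrf1 (3.66 ± 0.97), Tk1 (2.96 ± 0.55) and Dut (2.03 ± 0.51), all as log2 fold changes. The levels of 14 genes did not overlap with D0 higher, and those of 0 with D0 lower (8.99% and 36% of all genes). The median over the 41 genes was 1.07, and 23 genes had an unadjusted p under 0.05 (27.2% of all genes). Summed over the 41 genes, the level was 448, 406 and 441 CPM in Ctrl, 410.4, 377 and 1124 CPM in D0, 466 and 332 CPM in D2-1 and D2-2 and 2980.1 CPM in D2-3. D0-1 and D0-2 were thus not above Ctrl in sum, and without D0-3 the median log2 fold change fell to 0.34, with 5 genes called, of which 4 were among the 7. In D2, 1 gene rose (E2f1, 2.58 ± 0.67, adjusted p = 0.0389), where 6.56% of all genes rose and 4.57% fell, and the median was 0.24. The levels of 10 genes did not overlap there with D2 higher (13.9% of all genes), all of them among the 14 of D0. Those of 7 genes did not overlap with D2 lower (34.2% of all genes), namely Prim2, Rfc2, Rpa3, Gins4, Rpa1, Pola2 and Fen1. The log2 fold change in D2 was above 0 for 24 of the 41 genes.

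E2f1 was the 1 gene called in these cells in both D0 and D2, with 1.05, 0.891 and 1.202 CPM in Ctrl, 5.34, 7.25 and 27.9 CPM in D0, 5.73 and 5.86 CPM in D2 and 52.4 CPM in D2-3. Its log2 fold change in D0 was 3.90 ± 0.62 with adjusted p = 0.00516, close to its value over all microglia-like cells. Rrm2, in contrast, was down to 0.939, 1.99 and 6.36 CPM in D0, from 21.7, 20.2 and 26.3 CPM over all cells, against at most 0.0802 CPM in Ctrl, a level of so few UMIs that the size of its fold change is uncertain. Tyms and Rrm1 were not called here, at 0.93 ± 0.34 and 0.54 ± 0.33 in D0. With S-phase cells removed as well, the 41 genes summed to 441, 397 and 425 CPM in Ctrl, 379, 337 and 653 CPM in D0, 401 and 313 CPM in D2, and 1803 CPM in D2-3, and D0-3 was still the highest of the 8. That removal used the levels of 20 of the genes, so it was read for the 21 others, of which 20 were tested, and 1 of them was called in D0 and 0 in D2 (10.5% and 11.8% of all genes).

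Within D0, the 4 classes of cells (neither rule, mitosis rule alone, S-phase rule alone, both rules) were compared. For the 20 genes of the S-phase rule the classes follow from the rule, so the 21 others carry the description, without a test. S-phase cells without mitotic genes were above cells of neither rule in all 3 D0 libraries for 21 of these 21 genes, and cells with mitotic genes alone were above them for 15. The share of all genes that did so was not computed, so these counts cannot be set against a background. Rrm1 was at 10.3, 7.64 and 11.4 CPM in cells of neither rule in D0-1, D0-2 and D0-3, at 77.6, 76.9 and 84.2 CPM in S-phase cells without mitotic genes, at 279.8, 181 and 192 CPM with both and at 137, 61.4 and 77.0 CPM with mitotic genes alone. Dut had 6.12, 7.51 and 15.3 CPM, 141, 169 and 122 CPM, 186, 138 and 206 CPM and 57.5, 22.9 and 28.5 CPM in the same order of classes. Rrm1 was higher in cells with mitotic genes alone than in S-phase cells without them in D0-1 and lower in D0-2 and D0-3, while Dut was lower there in each library. Prim1 went with Dut, with means of 81.1 CPM in S-phase cells without mitotic genes and 25.3 CPM in cells with mitotic genes alone. Over the 4 classes, Gins4 and Rfc1 had the smallest ratios of the highest to the lowest mean, 2.54 and 2.72, and the means of Rfc1 were 45.7 CPM in cells of neither rule, 100.2 CPM in S-phase cells without mitotic genes, 114 CPM with both and 41.7 CPM with mitotic genes alone.

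Cells that passed both rules were then set against S-phase cells without mitotic genes. Among the 21 genes outside the rule, 12 were higher with both in all 3 D0 libraries and 1, Rfc3, was lower. The shares of all genes in either direction were not computed here either. Of the 20 genes of the rule, whose levels chose the cells, 8 were higher, Mcm7 of helicase loading among them, and 8 were lower, namely Mcm2, Mcm4, Mcm5, Mcm6, Cdt1, Gins2, Hells and E2f1. In cells with mitotic genes alone, Rrm1 was at 9.39 times its mean level in cells of neither rule and was higher in each D0 library. Rrm2, Tk1 and Tyms, which belong to the rule, were at 57.9, 21.3 and 5.88 times their own means in cells of neither rule. Mcm2, also of the rule, was at 6.19, 6.53 and 12.8 CPM in cells with mitotic genes alone in D0-1, D0-2 and D0-3, against 3.51, 3.75 and 21.7 CPM in cells of neither rule, so it was higher in D0-1 and D0-2 and lower in D0-3. Cells that passed neither rule at 2000 UMIs can still be cycling cells whose transcripts were not captured.

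**Figure D4:**
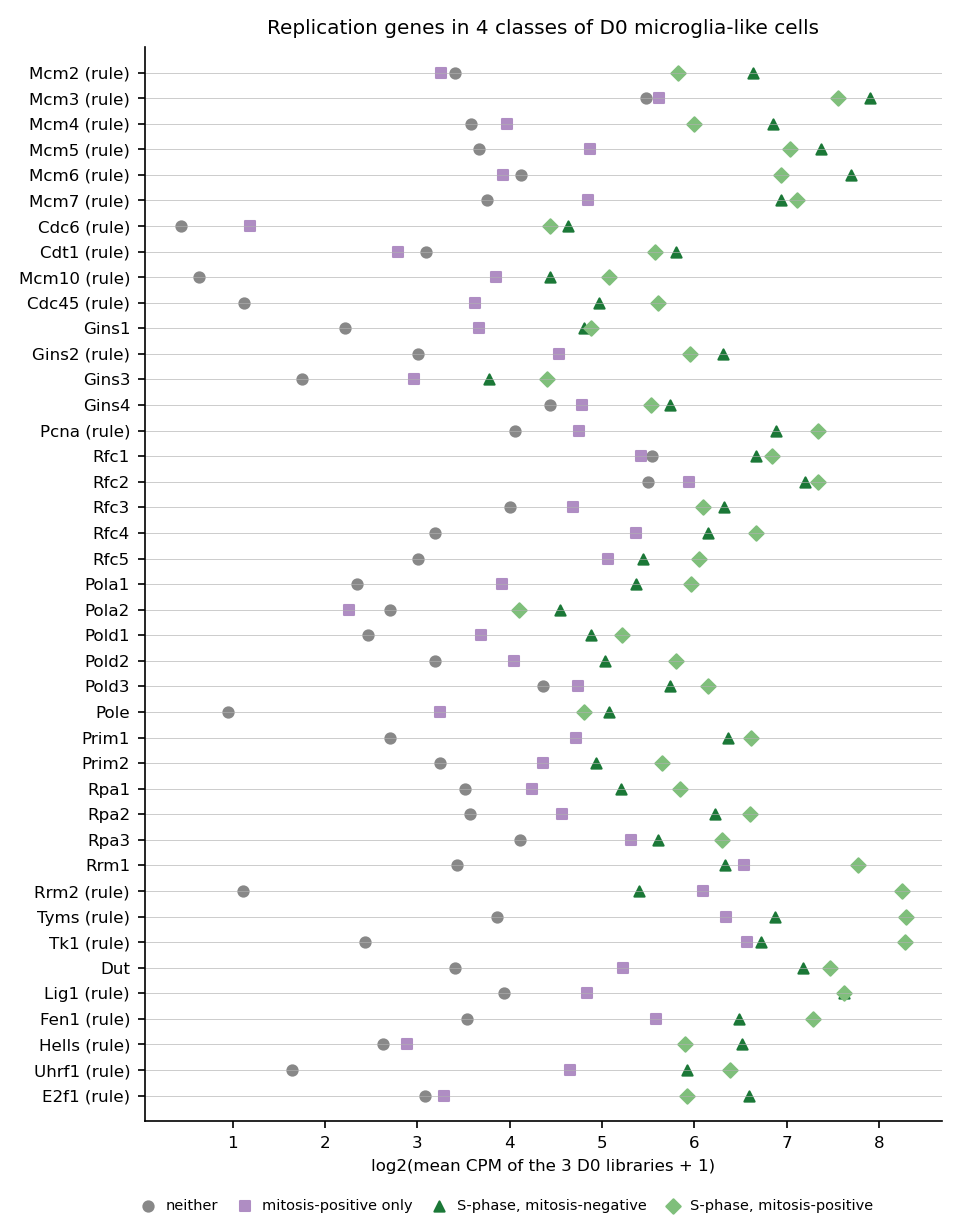
Levels of the 41 replication genes in 4 classes of D0 microglia-like cells, as log2 of the mean CPM of the 3 D0 libraries + 1, with a symbol for each class and genes of the S-phase rule marked. Rrm1, outside the rule, is higher in the 3 classes that passed a rule than in cells of neither, and Gins4 and Rfc1 have their 4 symbols closest together.

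Other myeloid cells of the sort were fewer. Border-associated macrophage-like cells numbered 27 to 160 per tested library, monocyte-like cells 8 to 113 and neutrophil-like cells 15 to 517, each fitted over the libraries with at least 20 such cells. None of the 41 genes was called in these 3 classes in D0 or D2 against Ctrl (edgeR, with 6 to 23 of the genes passing the filter on low counts in each class). Among the genes that passed, the median log2 fold change was 1.43 in D0 and 1.66 in D2 in monocyte-like cells. It was 1.85 and 1.45 in neutrophil-like cells and 0.45 and -0.24 in border-associated macrophage-like cells. A gene can pass the filter through the group in which it is high, so these medians do not stand for the 41 genes. Without the filter, the medians over the 41 genes were 1.31 and 1.32 in monocyte-like cells and 1.18 and 1.07 in neutrophil-like cells. In border-associated macrophage-like cells they were 0.063 and -0.50. Summed over the 41 genes, monocyte-like cells had 434, 407 and 356 CPM in Ctrl, with 8 cells in Ctrl-1. The sums were 446, 1209 and 379 CPM in D0 and 1380 and 701 CPM in D2-1 and D2-2. DESeq2 also called 0. By edgeR, 20 tests over the 6 comparisons had an unadjusted p under 0.05, 18 of them in monocyte-like cells. The share of all genes that did so is not given here, so these counts are not set against a background. Without the filter, 13 of the 41 genes were called by edgeR. Of all genes tested, 0.463% were called in border-associated macrophage-like cells, 0.763% in monocyte-like cells and 0.0878% in neutrophil-like cells in D0 against Ctrl, and 0.0165%, 1.74% and 2.7% in D2. The unfiltered calls were 9 genes in D0 and 11 in D2 in monocyte-like cells (2.74% and 3.34% of all genes), 2 and 1 in neutrophil-like cells (0.976% and 4.2%) and 0 in border-associated macrophage-like cells (3.19% and 1.78%). The absence of calls in so few cells does not show that the genes were unchanged.

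Shares of S-phase cells in these classes rest on few cells. In border-associated macrophage-like cells, S-phase cells were 3 of 275 in Ctrl, 1 of 123 in D0 and 0 of 63 in D2, which allows a share of up to 4.76%. Monocyte-like cells had 0 of 132 in Ctrl, with an interval of up to 2.76%, 11 of 221 (4.98%) in D0 and 5 of 88 (5.68%) in D2. D0-2 held 10 of the 11 in D0. For neutrophil-like cells the counts were 1 of 128, 15 of 624 and 2 of 197, and for dendritic cell-like cells, which had too few Ctrl cells for a test, they were 1 of 51, 7 of 312 and 3 of 141. Here too single libraries held most of the D0 cells: D0-2 held 12 of the 15 neutrophil-like and D0-1 held 6 of the 7 dendritic cell-like cells. Whether a change differed from that in microglia-like cells was tested with the library as a block. Of the 41 genes, 3 differed in D0 and 1 in D2 for border-associated macrophage-like cells (1.29% and 1.1% of all genes). For monocyte-like cells 1 and 1 differed (3% and 3.76%), and for neutrophil-like cells 0 (0.791% and 3.95%). In neutrophil-like cells, 2 of the 41 had an unadjusted p under 0.05 in each. In border-associated macrophage-like cells Dut, E2f1, Pola1, Tyms, Rrm1, Prim1, Mcm5, Cdt1, Cdc6, Tk1, Rrm2, Uhrf1 and Hells did so in both. Mcm7, Lig1, Gins2 and Fen1 did so in D0 alone, and Rpa3 in D2 alone. Their changes were lower than in microglia-like cells. In monocyte-like cells, Tyms and E2f1 did so in both, and Mcm3, Mcm5, Mcm6, Mcm7 and Rfc2 in D2 alone. There only E2f1 was lower. How many of all genes did so is not given here. Rrm1 differed most: in border-associated macrophage-like cells it had 18.6, 12.6 and 19.3 CPM in Ctrl, 1.91, 2.95 and 10.5 CPM in D0 and 3.41 and 7.36 CPM in D2, from 1 to 25 UMIs per library, and its change was different from that of microglia-like cells by -3.59 ± 0.58 in D0 on the log2 scale (adjusted p = 3.48e-04).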

How the data were processed

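The UMI counts per gene and barcode were deposited by the authors for each library as Cell Ranger called the cells, with no normalization or further filter. The submitters' processing notes name Cell Ranger 3.1.0 and mm10, and the file headers give 3.0.2 in 6 libraries, and 3.1.0 in D2-3, Ctrl-2 and Ctrl-3. The members and lists were chosen with earlier results of these data known.

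The limits of the study were used to keep cells: 500 to 20000 UMIs, no fewer than 200 genes, and a mitochondrial share of UMIs of 10% or less. They were clustered (python 3.11.15, scanpy 1.11.5, leidenalg 0.10.2, resolution 0.6, 10 principal components, 20 neighbours) without replication, mitotic and histone genes, so that the genes described did not set the classes. Clusters were named from marker lists, as "-like", and 1 mixed cluster of 1550 cells was split by finer clustering after it had been seen. D2-3 and barcodes over 20000 UMIs were placed by their 30 nearest neighbours. Doublets were not removed, and the rebuilt cell names may not match the authors' own. Libraries of D0 and D2 pool 2 mice.

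UMIs were summed per library and class, and the sums of Ctrl, D0, D2-1 and D2-2 were fitted together with edgeR 4.0.16 (R 4.3.3): TMM, filterByExpr, quasi-likelihood test, Benjamini-Hochberg adjustment over all genes tested and calls at 0.05. The test was tested on simulated counts. CPM values were computed from the sums without TMM factors. Shares of cells were compared with exact two-sided permutation tests (scipy 1.17.1). Values in every library are given for genes called in D0 whose higher group reached 20 CPM (the 12 largest changes, of which 11 qualified) and for genes not called at 20 CPM or more. Alternatives were DESeq2 1.42.0, no low-count filter, a replicate block, Cell Ranger version as a term, other cell rules, finer clustering, thinning, leaving out each library and including D2-3. The alternatives of leaving out D0-3 with D2-3 included, and of leaving out the TMM factors, were chosen after seeing the data. Promoters came from RefSeq on GRCm38.p6.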

Additional observations from a re-analysis of the deposited data

Results flagged for a closer look

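In D2-3, which the tests left out, the 41 replication genes summed to 2956 CPM in microglia-like cells, above every other library, and 58.7% of these cells passed the S-phase rule. Barcodes over the limit of 20000 UMIs that were placed among microglia-like cells also entered no comparison. After thinning to the same 2000 UMIs, 22.4% of them in D0-1, 7.58% in D0-2, 24.3% in D0-3, 8.62% in D2-1 and 12.7% in D2-2 passed the S-phase rule, where Ctrl libraries had 0.466% to 1.33%. Such barcodes can hold more than 1 cell, and doublets were not removed.

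The change of 4 genes differed between another myeloid class and microglia-like cells of the same libraries (edgeR, library as a block, log2 scale, other class minus microglia-like). For border-associated macrophage-like cells in D0 against Ctrl the difference was -3.59 ± 0.58 for Rrm1 (adjusted p = 0.000348), -2.86 ± 0.56 for Lig1 (adjusted p = 0.00328) and -2.29 ± 0.60 for E2f1 (adjusted p = 0.0495), and in D2 against Ctrl it was -2.997 ± 0.67 for Rrm1 (adjusted p = 0.0153). For monocyte-like cells it was -3.32 ± 0.80 for E2f1 in D0 (adjusted p = 0.00218) and 2.30 ± 0.57 for Mcm3 in D2 (adjusted p = 0.00287). These values rest on 1 to 41 UMIs of a gene per library in the other class.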

How the results depend on the processing

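All gene counts here are out of the 41 replication genes and use edgeR unless DESeq2 is named. Except where stated, the share of all genes called in the same fit is not given, so changes in these counts are not set against a background. In microglia-like cells, the 27 genes called in D0 against Ctrl became 3 with D2-3 included, 15 with a term for the Cell Ranger version, 17 with cells thinned to 2000 UMIs, and 1 without D0-3 but with D2-3, and leaving out 1 library at a time gave 17 (without Ctrl-2) to 28. The 13 genes called in D2 became 6 with the version term and 7 with thinned cells, and leaving out 1 library gave 6 to 21. The 0 genes called in D2 against D0 became 1, Rrm2, with DESeq2 and with no filter on low counts. In mitosis-negative cells, the 7 genes called in D0 became 16 with DESeq2, 21 with no filter, 11 with no upper limit on UMIs, 1 with no mitotic UMI allowed at full depth, 1 with S-phase cells left out (of the 21 genes outside that rule), and 0 with the version term, with D2-3 included, or without D0-3 but with D2-3; leaving out 1 library gave 3 to 13. The 1 gene called there in D2 became 2 with DESeq2 or with only the groups compared, 3 with no filter, and 0 with the version term, no upper limit, S-phase cells left out, or without D0-3 but with D2-3; leaving out 1 library gave 0 to 5. In the other myeloid classes the 0 genes called became 13 with no filter, and the 4 genes whose change differed between classes became 7 with no filter and 8 with D2-3 included, and leaving out 1 library gave 3 to 8 (8 without D0-2). With at least 10 cells per library, dendritic cell-like cells could be fitted, and 0 of the 24 genes tested were called in D0 or D2. Of all 6933 genes tested, 0 were called there as well, so this count says nothing particular of the 24. The change of dendritic cell-like cells in D0 was lower than that of microglia-like cells for 4 genes, Mcm6, E2f1, Rrm1 and Rrm2. Of all 11981 genes, 268 differed there. In D2, 0 of the 41 genes and 284 of all genes differed. The difference in the share of S-phase cells without mitotic genes between D2 and D0, -5.68 percentage points, changed sign to 11.1 without D0-3 but with D2-3, and leaving out 1 library gave -20.2 to 11.3. The cause of these moves was not tested.

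Same-numbered libraries deviated together in part, with correlations of deviations of 0.403, 0.205 and 0.161 for the 3 pairs of Ctrl and D0. They were 0.257 for D0-2 and D2-2, 0.084 for Ctrl-2 and D2-2, 0.054 for Ctrl-1 and D2-1 and -0.139 for D0-1 and D2-1. Libraries of different numbers also came close: Ctrl-3 was closer to D0-2 (0.299) than to D0-3, and D0-3 and D2-1 had 0.353. With 2 tested D2 libraries, the deviations of D2-1 and D2-2 are equal and opposite, so each D2 value has a mirror of opposite sign. The labels do not say what a number marks, so a fit with the number as a replicate block is given here alone. It called 28 genes in D0, 18 in D2, 0 between D2 and D0, and 10 and 3 in mitosis-negative cells. Of 756 values of 18 named genes under the alternatives, 691 kept their side of the threshold, 52 were no longer called and 13 became called. The sign changed in 30 of the 756, none of them called before or after. Without TMM factors, 38 genes were above Ctrl in D0 and 30 in D2, against 41 and 33. Depth limits what can be said of Mcm10, Cdc6 and Rrm2 in Ctrl and of all replication genes in the smaller classes. With 2 to 3 libraries a group, the smallest possible permutation p is 0.1 or 0.2.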
